A study of Drosophila melanogaster with 2 samples.

Results

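The peaks described here are sites bound by CG12299 upstream of Drosophila melanogaster gene starts that the annotation gives in 1 direction only; transcription itself was not measured. They were the peaks of the authors' thresholded list whose summit lay at most 500 bp from an annotated transcription start site (TSS), upstream of the nearest TSS, and not between 2 divergent starts at most 1000 bp apart. There were 895 such peaks of 3672 in the thresholded list, or 24.4% (95% exact binomial interval 23.0 to 25.8). The choice used position alone, after the authors' own threshold. The chromatin came from whole embryos aged 0 to 24 h of 1 transgenic line that stably makes CG12299 with GFP (labelled eGFP) at its C terminus, in a strain named for CG12299, and GFP was the target of the antibody. The design held 1 group of 2 biological replicates and no second condition, both replicates from the same line. All tissues and stages of embryogenesis were mixed, so a peak does not say in which cells the site was bound.

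A one-directional promoter starts transcription of an annotated gene on 1 strand only, whereas a head-to-head promoter is the short stretch between a pair of genes that are transcribed away from each other. In Drosophila, broadly active genes often carry the DNA replication-related element (DRE), read by the factor Dref and overlapping the motif of the insulator protein BEAF-32, or Motif 1, read by M1BP. Regulated genes more often carry a TATA box, an initiator at the start site or GAGA elements, which the GAGA factor binds. CG12299 was assayed as a transcription factor, and its sequence preference is not given in the labels.

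The sequences below, from the RefSeq release 6 assembly (dm6 coordinates), show the DNA under the strongest of these summits outside 1 arm. Each runs over 50 bp on either side of the summit, in the direction of the gene whose start is nearest, and capitals mark TTAAAA or CTTAAA on either strand (as TTTTAA and TTTAAG on the opposite one, with 7 capitals where both overlap). These 2 words were chosen after the values had been seen, because the strongest summits were rich in A and T.
CG14100: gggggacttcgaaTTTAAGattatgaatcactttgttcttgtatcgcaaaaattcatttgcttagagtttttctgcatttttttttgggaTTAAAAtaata
Gapdh2: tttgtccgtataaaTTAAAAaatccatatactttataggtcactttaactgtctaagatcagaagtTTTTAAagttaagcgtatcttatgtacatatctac
CG18549: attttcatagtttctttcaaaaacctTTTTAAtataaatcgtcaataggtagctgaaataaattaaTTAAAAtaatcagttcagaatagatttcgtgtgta
CG1635: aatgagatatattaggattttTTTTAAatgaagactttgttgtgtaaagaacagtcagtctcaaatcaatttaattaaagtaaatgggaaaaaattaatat
ph-p: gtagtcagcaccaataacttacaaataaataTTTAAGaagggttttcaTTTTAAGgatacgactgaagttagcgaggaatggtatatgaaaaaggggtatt
PNPase: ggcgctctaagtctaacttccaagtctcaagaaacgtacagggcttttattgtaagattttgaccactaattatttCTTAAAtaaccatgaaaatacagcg
RluA-1: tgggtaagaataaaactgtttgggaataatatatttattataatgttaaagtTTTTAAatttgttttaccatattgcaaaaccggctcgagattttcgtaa
Eno: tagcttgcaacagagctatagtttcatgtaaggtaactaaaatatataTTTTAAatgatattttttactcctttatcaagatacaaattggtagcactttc
CG14100 lies at chr3L:19590564-19590664, minus strand, and its summit was 90 bp upstream of the start. Gapdh2, which encodes the glycolytic enzyme glyceraldehyde-3-phosphate dehydrogenase, lies at chrX:15867920-15868020, plus strand, and its summit was 175 bp upstream. CG18549 lies at chr3R:12449122-12449222, plus strand, with the summit 124 bp upstream, and CG1635 at chr3R:31588480-31588580, plus strand, with the summit 143 bp upstream. The window of ph-p, which encodes a Polycomb group protein, is chrX:2137289-2137389, minus strand, and its summit lay 484 bp upstream in an intron of the same gene. PNPase, a mitochondrial RNA-degrading enzyme, is shown at chr3R:31404603-31404703, minus strand, 85 bp upstream. RluA-1, a pseudouridine synthase, is shown at chr2L:10474491-10474591, minus strand, 192 bp upstream, and Eno, the glycolytic enolase, at chr2L:1727860-1727960, minus strand, 193 bp upstream. All 8 windows held at least 1 of these words, and their GC content lay between 21.8% and 35.6%. This count is a description and no test, because the words were chosen after the values had been seen. Over all 895 members, TTAAAA was in 33.0% of windows and CTTAAA in 15.4%.

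A second set of windows shows 1 example each of known promoter and insulator words, taken from the highest-scoring peak with the word outside 1 arm whose sequences are not shown, with the word in capitals.
CG11151: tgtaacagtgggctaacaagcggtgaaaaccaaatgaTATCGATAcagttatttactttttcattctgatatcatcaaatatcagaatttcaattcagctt
CG2991: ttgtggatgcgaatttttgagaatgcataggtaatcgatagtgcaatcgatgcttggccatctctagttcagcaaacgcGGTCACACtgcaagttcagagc
TRAM: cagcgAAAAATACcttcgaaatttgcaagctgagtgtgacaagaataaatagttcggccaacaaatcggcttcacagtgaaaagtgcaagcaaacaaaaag
bbx: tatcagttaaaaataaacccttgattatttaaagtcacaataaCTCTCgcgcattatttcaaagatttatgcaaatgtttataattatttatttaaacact
aay: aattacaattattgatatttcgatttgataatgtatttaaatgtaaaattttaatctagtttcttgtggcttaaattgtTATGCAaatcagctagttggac
CG11151 (chrX:13739427-13739527, plus strand) holds the DRE word TATCGATA, and CG2991 (chr2L:2857098-2857198, plus strand) holds the Motif 1 word GGTCACAC. The window of TRAM, a protein of the endoplasmic reticulum translocon (chrX:935285-935385, plus strand), holds the Motif 6 word GTATNTTT on the opposite strand. The window of bbx (chrX:21367769-21367869, plus strand) holds the GAGA word GAGAG on the opposite strand, and that of aay, a phosphoserine phosphatase (chr3L:9422993-9423093, plus strand), holds TGCATA, the core used here for Su(Hw), on the opposite strand. The Gapdh2 window above has TATAAA on both strands and is the highest-scoring member with that word. Only 22 of the 895 windows held the full DRE and 13 held Motif 1, so these examples stand for few peaks.

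Summits stood mostly a short way back from the start site. Their median distance was 171 bp upstream of the TSS (quartiles 93 and 263 bp), and 608 of 895 (67.9%) lay 51 to 300 bp upstream. Summits called in each replicate for the same peaks gave medians of 170 bp in replicate 1 and 168 bp in replicate 2, although 22 summits in replicate 1 and 30 in replicate 2 no longer lay upstream of that start. Weaker peaks of the pooled list with the same geometry (3205 peaks) had a median of 158 bp but a wider spread, with quartiles of 69 and 292 bp, and 57.1% of them lay 51 to 300 bp upstream. The pooled list held 30000 peaks with -log10 q-values down to 0.276, against 3.01 in the thresholded list, so its weaker peaks may include background. Of all 4100 pooled peaks upstream of one-directional starts, 895 (21.8%) had passed the authors' threshold. This share was 15.9% for summits 1 to 50 bp from the start, 30.2% at 151 to 200 bp and 14.2% at 451 to 500 bp. The median signalValue, the authors' peak score, was 135.4 for members 1 to 50 bp upstream, 195.1 at 151 to 200 bp, 207.3 at 251 to 300 bp and 159.0 at 451 to 500 bp.

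**Figure D1:**
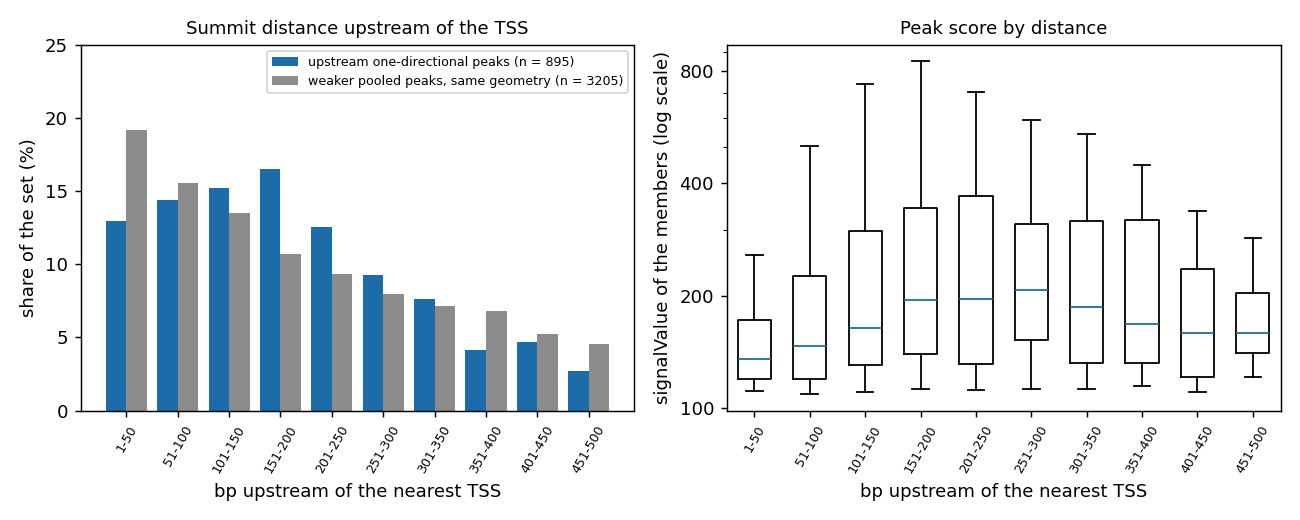
Left, percentage of summits in each 50 bp step upstream of the nearest TSS, for the 895 upstream one-directional peaks and the 3205 weaker peaks of the same geometry. Right, signalValue of the 895 peaks in the same steps on a log axis, with boxes at the quartiles, coloured lines at the medians and whiskers at the 5th and 95th percentiles; medians ran from 135.4 nearest the start to 207.3 at 251 to 300 bp.

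At the edges of the definition, the nearest members were those of Map205, a microtubule-associated protein, at 1 bp, and of isoQC and Spred at 2 bp each. The farthest inside the limit were those of spoon at 500 bp, pyd at 498 bp and t-cup at 497 bp, and the first outside it belonged to CG13907 at 502 bp, CG10543 at 503 bp and CG3348 at 504 bp. A further 164 thresholded summits of the same geometry lay 501 to 1000 bp upstream, with a median signalValue of 161.4, against 165.9 for the members. At the low end of the score, the last members by signalValue were at lncRNA:CR44145, at eEF2, a translation elongation factor, and at Notch (N), the signalling receptor, each at 107.0 or 107.1.

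Both replicates placed a peak at every member. All 895 were overlapped in replicate 1's list and in replicate 2's list, each of 30000 peaks. Their median rank was 1595 in replicate 1 and 1597 in replicate 2. When only the 3672 strongest peaks of each replicate were used, 684 members (76.4%, interval 73.5 to 79.2) were overlapped in both, compared with 78.6% of head-to-head peaks (75.2 to 81.7), 67.6% of peaks just downstream of a TSS (63.8 to 71.2) and 68.7% of peaks farther than 500 bp (66.3 to 71.0). The summits of the 2 replicates were a median of 31 bp apart, and 619 members (69.2%) had them within 50 bp. Over the 895 members, signalValue in replicate 1 and replicate 2 had a Spearman rho of 0.72, a description across peaks of 2 libraries. The thresholded list was derived from both replicates, so overlap in the full lists follows from its construction.

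**Figure D2:**
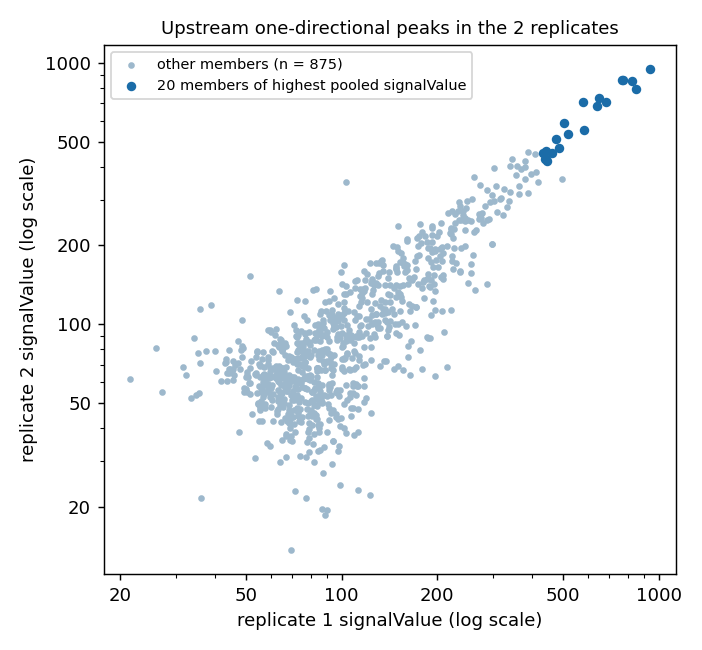
signalValue of each upstream one-directional peak in replicate 1 (horizontal) and replicate 2 (vertical), both on log axes and each on its own list's scale. The overlapping peak with the nearest summit is shown. Of the 20 members of highest pooled signalValue, 19 are among the 20 highest in replicate 1 and 18 in replicate 2, and the members of low score scatter widely.

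The members of highest score sat at genes of varied function. CG14100 led with a pooled signalValue of 1884 (942 in replicate 1 and 951 in replicate 2), followed by Gapdh2 with 1671 (827 in replicate 1 and 851 in replicate 2). The third was px (plexus), a regulator of wing vein patterning, with 1649 (851 in replicate 1 and 797 in replicate 2). CG18549 had 1624 (773 and 862 in replicates 1 and 2) and mRpL41, a protein of the mitochondrial ribosome, 1621 (765 and 860). These 5 ranked 2 to 8 in each replicate's own list. The next were CG1635 (1390), Fkbp14, a peptidyl-prolyl isomerase (1373), ph-p (1314), PNPase (1284), CG1888 (1141), RluA-1 (1090), lncRNA:CR44339 (1046), Tina-1 (987) and Eno (960). aay had 901, lncRNA:CR31044 had 896, and the peak at elav, the neuronal RNA-binding protein whose start is shared with lncRNA:enrr, had 883. gish, a casein kinase, had 870, Ptpmeg2, a tyrosine phosphatase, 868, and larp, an RNA-binding protein, 855. Of these 20 peaks, ph-p at 484 bp, larp at 326 bp and elav at 276 bp lay farthest from their start.

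The members divided between intergenic DNA and transcribed sequence. Of 895, 462 (51.6%, interval 48.3 to 54.9) fell between annotated genes, 340 (38.0%, 34.8 to 41.3) inside the gene whose start was nearest, and 93 (10.4%, 8.47 to 12.6) inside another gene. Those inside their own gene stood upstream of an internal start, and 339 of the 340 belonged to genes with 2 or more annotated TSSs. Intron held 333 members, 5′ UTR 74, other exon sequence 14 and 3′ UTR 12, and 0 of 895 lay in coding sequence, with an exact interval up to 0.411%. Among the 3205 weaker peaks, 62 (1.93%) were in coding sequence and 17.0% (15.7 to 18.4) lay inside another gene. Of the 462 members between genes, 345 (74.7%) had a gene on the same strand as the next one upstream, in tandem order, with a median gap of 630 bp between the 2 genes, and in 214 of these the gap was at most 1000 bp. The other 116 with a gene on the opposite strand had a median gap of 2942 bp, since closer divergent pairs were left out by definition. The tandem share was 70.1% among weaker peaks between genes.

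Some genes carried several such peaks. In all, 854 genes of 13685 with a one-directional TSS had a member (6.24%), through 871 distinct TSSs, and 45 genes or gene pairs had 2 members and 8 had 3 or more. Of the 45, 23 had both summits before the same start and 22 before different starts. Summits of a same-start pair lay closer together than the median width of a thresholded peak, 384 bp. The 2 peaks of papi, at 127 and 326 bp upstream, overlapped each other. Whether such pairs are separate sites or split calls of 1 stretch was not tested. Rtnl1, a reticulon that shapes the endoplasmic reticulum, had 5, with pooled signalValues of 590.5, 501.0, 243.8, 164.4 and 119.7, of which the second-lowest and the third-highest stood before the same start. Hnf4, a nuclear receptor of lipid metabolism, had 3 (261.8, 204.9 and 131.7). dnc, the cAMP phosphodiesterase, had 3 (417.5, 406.4 and 133.7), Ptpmeg2 had 3 (868.4, 382.4 and 253.2), and Moe (moesin), Svil, pyd and shot, proteins of the cytoskeleton and cell junctions, had 3 each. The median number of TSSs was 3 for genes with a member inside them and 1 over all genes with a one-directional start. Another thresholded summit lay within 1000 bp of 148 members (16.5%), and the median distance to the next one was 5636 bp. Members made up 23.0% to 26.9% of the thresholded peaks of each chromosome arm.

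Of 24 gene lists examined, glycolytic enzymes and cytosolic ribosomal proteins had the largest shares of genes with such a peak, although with replicate 1 left out the Polycomb and trithorax list (6 of 21, 28.6%) was above the ribosomal proteins (14 of 64, 21.9%). The background over all genes with a one-directional start was 6.24%. In glycolysis, 6 of 13 genes had a member (46.2%, interval 19.2 to 74.9), with a median signalValue of 599.2, against 165.9 over all members, and a median distance of 197.5 bp. Gapdh2 was the highest at 1671 and Eno the next at 960, which ranked 39 in replicate 1 and 38 in replicate 2. Hex-A, a hexokinase, had 695.3 (388.0 in replicate 1 and 317.3 in replicate 2), and Ldh, lactate dehydrogenase, 503.2 (249.8 in replicate 1 and 250.2 in replicate 2). Pgk, phosphoglycerate kinase, had 153.1 and PyK, pyruvate kinase, 129.8, both below the members' median and at ranks between 1156 and 3913 in the replicates. The first 4 lay 175 to 200 bp upstream, whereas Pgk lay at 287 bp and PyK at 405 bp.

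Cytosolic ribosomal protein genes had peaks of a different position. Of 64 with a one-directional start, 14 (21.9%, interval 12.5 to 34.0) had a member, with a median signalValue of 195.1 and a median distance of 31.5 bp, against 171 bp over all members. All 14 lay 5 to 90 bp upstream. RpL7 had the highest at 470.0 (226.1 in replicate 1 and 232.1 in replicate 2), 41 bp upstream, RpL31 had 315.1 (206.7 in replicate 1 and 112.1 in replicate 2), 5 bp upstream, and RpL24 had 279.2 (117.7 in replicate 1 and 159.2 in replicate 2), 19 bp upstream. RpL31 was above RpL24 in replicate 1 and below it in replicate 2.

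The other lists had few genes with a member, and some of their counts changed when 1 replicate was left out. Heat shock and chaperone genes had 4 of 26 (15.4%), namely Hsp83, the fly Hsp90 (736.2), Hsp27, a small heat shock protein (573.5), Hsp60A, the mitochondrial chaperonin (148.1) and Hsp22 (114.2). Mitochondrial ribosomal proteins had 3 of 21, led by mRpL41, with mRpL19 (168.4) and mRpL10 (112.4), and the vacuolar proton pump had 3 of 23 (Vha16-1, 224.5, Vha68-2, 186.5, and VhaPPA1-1, 121.2). Mediator, TAF and RNA polymerase subunits had 3 of 33 (Taf4, 297.5, Polr2F, 144.4, and Polr1B, 119.9). Of muscle and mesoderm genes 3 of 24 had one, namely tin, the heart determinant (391.3), sls, which encodes titin-like proteins (275.9), and Tm1, a tropomyosin (202.9). Of neural genes 3 of 25 had one (elav, 882.9, SoxN, 131.3, and cpo, 118.0), of segmentation genes 2 of 23 (nkd, a Wingless antagonist, 389.0, and bcd, the anterior morphogen, 119.8), and of Polycomb and trithorax group genes 2 of 21 (ph-p, and Utx, a histone demethylase, 136.7). Oxidative phosphorylation had 2 of 65 (Cyt-c-p, 147.7, and RFeSP, 110.8), translation initiation factors 2 of 33 (eIF2D, 122.0, and eIF4G2, 115.5), the proteasome 1 of 30 (Rpn10, 107.8), the cell cycle list 1 of 23 (Dp, 257.8) and the germline and piRNA list 1 of 17 (papi, with 2 peaks, 425.3 and 196.5). None was found for 16 aminoacyl-tRNA synthetases, 12 insulator and boundary proteins, 8 Hox genes or 91 cuticle genes, where the exact intervals reach 20.6%, 26.5%, 36.9% and 3.97%. Chemoreceptors had 1 of 154 (Or88a, 136.9). With replicate 1 left out, the counts were 6 of 21 for the Polycomb and trithorax groups, 6 of 33 for Mediator, TAF and RNA polymerase, 1 of 33 for initiation factors and 0 of 154 for chemoreceptors. With replicate 2 left out, they were 3 of 23 for the cell cycle list and 1 of 23 for segmentation. The insulator and boundary list had 1 of 12 in either case.

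**Figure D3:**
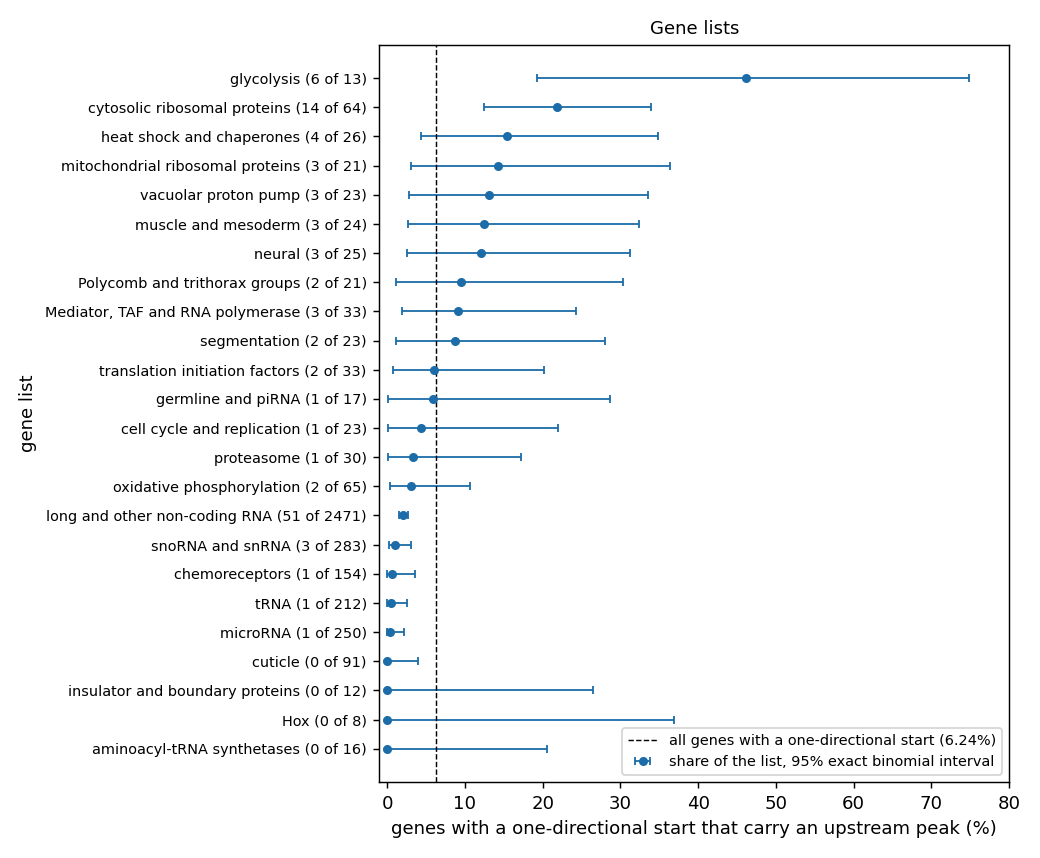
Percentage of the genes of each list with a one-directional start that carried an upstream peak, as points with 95% exact binomial intervals; the counts stand beside each name and the dashed line marks 6.24%, the share over all 13685 genes. Glycolysis (6 of 13) and cytosolic ribosomal proteins (14 of 64) lie farthest to the right.

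Protein-coding genes took most of the members. Of the 895 peaks, 840 (93.9%) stood at protein-coding genes, while 74.1% of genes with a one-directional TSS were protein-coding. Thus 7.86% of 10147 such protein-coding genes had a member. Long and other non-coding RNA genes had 51 of 2471 (2.06%), with lncRNA:CR44339 and lncRNA:CR31044 the highest, snoRNA and snRNA genes 3 of 283, tRNA genes 1 of 212 (tRNA:Gln-TTG-2-1, 110.8) and microRNA genes 1 of 250 (mir-9378, 312.9). Several of these lay inside another gene, so the peak cannot be tied to the small RNA alone. The tRNA count was 2 of 212 with replicate 1 left out, and the microRNA count 2 of 250 with replicate 2 left out.

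The DNA at the summits was poor in G and C. Within 50 bp of the summit the members averaged 34.2% GC (SD 10.5 over 895 peaks), compared with 31.1% at head-to-head peaks (SD 9.68), 39.9% at peaks just downstream of a TSS (SD 9.50), 32.9% at peaks farther than 500 bp (SD 8.91) and 40.9% at the weaker peaks of the same geometry (SD 10.7). The members' own flanks, 300 to 600 bp from the summit, averaged 42.7%. All 17362 one-directional starts, read at 171 bp upstream, averaged 38.7%. Along the gene strand the members' lowest GC content stood just before the summit, at 33.1% in the 20 bp step from 60 to 41 bp upstream of it. Aligned on the TSS instead, the lowest value was 33.8% at 200 to 181 bp upstream. By distance from the start, GC content of the members averaged 45.0% for summits at 1 to 50 bp, 38.2% at 51 to 100 bp, 33.6% at 101 to 150 bp and 30.2% at 151 to 200 bp.

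**Figure D4:**
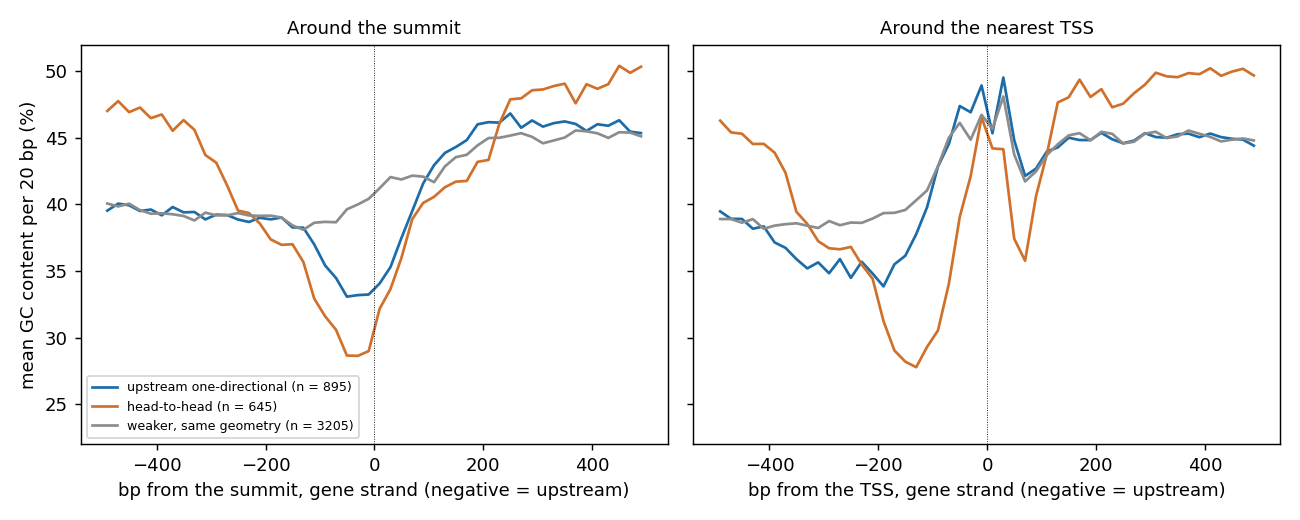
Mean GC content in 20 bp steps along the gene strand, around the summit (left) and around the nearest TSS (right), for the upstream one-directional, head-to-head and weaker peaks. The upstream one-directional peaks dip to 33.1% just before the summit and to 33.8% at 200 to 181 bp before the TSS, while the weaker peaks of the same geometry show no such dip around either point. The head-to-head peaks dip lower, to 28.6% at 40 to 21 bp before the summit and 27.8% at 140 to 121 bp before the TSS.

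Sequence words at the summits were compared between classes of peak. Each of 16 words was sought on either strand, up to 50 bp from the summit, and the shares of peaks that held it were compared with a two-sided Fisher's exact test whose p-values were adjusted over the 16 words (Benjamini-Hochberg). Against the 645 head-to-head peaks, 1 of 16 words was more frequent in the members (6.25% of words tested) and 3 were less frequent (18.8%). GAGAG was present in 12.8% of members and 7.29% of head-to-head peaks (odds ratio 1.88, adjusted exact p = 0.00633). The DRE word TATCGATA was in 2.46% of members and 5.43% of head-to-head peaks (odds ratio 0.44, adjusted exact p = 0.0197), and its shorter BEAF-32 part TCGATA, which every DRE contains, in 10.3% and 14.7% (odds ratio 0.66, adjusted exact p = 0.0363). TAATTA, the core bound by many homeodomain proteins, was in 9.94% of members and 15.2% of head-to-head peaks (odds ratio 0.62, adjusted exact p = 0.0163). Head-to-head summits lay nearer to a TSS, at a median of 97 bp against 171 bp for the members, and the part of this distance in the word differences was not tested. None of these 4 differences passed the test among the 1836 thresholded peaks of highest score (502 members), where each kept its direction. With replicate 1 left out, the DRE and TCGATA calls were also lost (adjusted exact p = 0.135 and 0.768). They were lost as well with a limit of 250 bp from the TSS (adjusted exact p = 0.127 and 0.200). GAGAG and TAATTA kept their calls in both cases.

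Compared with the 635 peaks just downstream of a TSS, 1 word was more frequent (6.25% of 16) and 1 less frequent (6.25%). TATAAA was found in 23.9% of members and 15.9% of downstream peaks (odds ratio 1.66, adjusted exact p = 0.00237), and CACACACA in 1.79% and 4.41% (odds ratio 0.39, adjusted exact p = 0.0240). Neither passed among the 1836 strongest thresholded peaks, with adjusted exact p of 0.128 and 0.372. Compared with the 1497 peaks farther than 500 bp from any TSS, a comparison added after values had been seen, 3 words were more frequent (18.8% of 16) and 0 less frequent (0%), with 5 words at an unadjusted p under 0.05, all more frequent in the members. DRE was in 2.46% of members and 0.134% of distant peaks (odds ratio 18.8, adjusted exact p = 3.19e-07), TCGATA in 10.3% and 3.74% (odds ratio 2.95, adjusted exact p = 6.02e-09), and Motif 1 in 1.45% and 0.200% (odds ratio 7.34, adjusted exact p = 0.00225). DRE and TCGATA kept this call under all 7 alternatives run, while Motif 1 lost it among the 1836 strongest thresholded peaks (adjusted exact p = 0.980) and in windows of 25 bp on each side (adjusted exact p = 0.0690). These 2 classes differ by definition in distance from a TSS, and the part of distance in these differences was not tested. The weaker peaks of the members' geometry held DRE in 2.34%, TCGATA in 8.49% and Motif 1 in 1.56%.

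Within the same geometry, the 3205 weaker peaks differed from the members in 8 of 16 words, 5 more frequent in the members (31.2%) and 3 less frequent (18.8%). TATAAA was in 23.9% of members and 14.3% of weaker peaks (odds ratio 1.88, adjusted exact p = 5.48e-10), and TAATTA in 9.94% and 5.93% (odds ratio 1.75, adjusted exact p = 0.0005), and both kept their calls under all 7 alternatives. The run AAAAAAA was in 12.6% and 8.86% (adjusted exact p = 0.00578), TGCATA in 8.04% and 5.71% (adjusted exact p = 0.0326) and Motif 6 in 6.70% and 4.62% (adjusted exact p = 0.0356). GAGAG was less frequent, in 12.8% of members and 16.5% of weaker peaks (adjusted exact p = 0.0222), as were CACACACA (1.79% and 3.62%, adjusted exact p = 0.0205) and GCCATT, the PHO core (4.47% and 6.61%, adjusted exact p = 0.0361). The last 3 lost their calls when replicate 2 was left out (adjusted exact p = 0.104, 0.369 and 0.256), as did Motif 6 (0.689) and TGCATA (0.241), and leaving out replicate 1 ended the calls of GAGAG and AAAAAAA (adjusted exact p = 0.0858 for both). The words more frequent in members were rich in A and T, as were their windows, and the part of base composition in these differences was not tested. For DRE, at 2.46% of members and 2.34% of weaker peaks, no difference was detected.

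**Figure D5:**
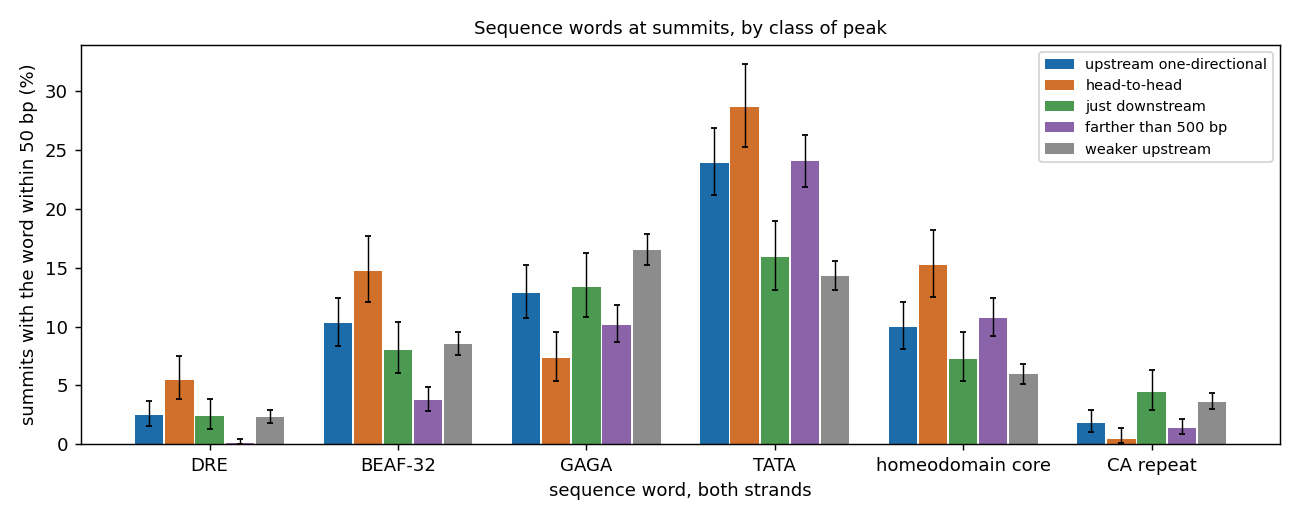
Percentage of summits with each of 6 words within 50 bp, for the upstream one-directional peaks and the 4 classes compared with them; bars start at 0 and lines are 95% exact binomial intervals. GAGAG is at 12.8% in the upstream one-directional peaks and 7.29% in head-to-head peaks, and DRE at 2.46%, 5.43% and, in peaks farther than 500 bp, 0.134%.

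Counting every arm, the highest-scoring holders were Alg3 for DRE (614.3), Spred for Motif 1 (177.9), mRpL41 for Motif 6 and Tina-1 for TGCATA. The number of occurrences of several words also changed with distance from the summit. Over all members, TATAAA occurred 146 times per 50 bp within 50 bp of the summit and 66 times per 50 bp at 201 to 300 bp from it. TCGATA had 73.5 and 30.2 occurrences per 50 bp in the same ranges, and TATCGATA 13 and 4.25. GAGAG ran the other way, with 100 occurrences per 50 bp at the summit and 174 at 201 to 300 bp, and so did CACACACA, with 12 and 48. Occurrences and not windows are counted here, so a window can count more than 1 time. GC content also changed over these ranges, and the part of base composition in these counts was not tested. At 171 bp upstream of all 17362 one-directional starts, windows of the same length held TATAAA in 15.9%, GAGAG in 14.2%, TCGATA in 4.72%, TATCGATA in 0.714%, GGTCACAC in 0.351%, TAATTA in 8.03% and GTATNTTT in 4.20%. The members as a whole spanned 1 to 500 bp, so their shares are not matched to these windows in distance. The 148 members at 151 to 200 bp held TATAAA in 27.0%, GAGAG in 8.78%, TCGATA in 4.73% and TATCGATA in 0.676%. They held GGTCACAC in 0%, TAATTA in 12.8% and GTATNTTT in 4.05%.

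The members were not uniform along the distance from the start. Of the 116 with a summit 1 to 50 bp upstream, 31 (26.7%, interval 18.9 to 35.7) held TCGATA, 9 (7.76%, 3.61 to 14.2) the full DRE, 8 (6.90%, 3.02 to 13.1) Motif 1 and 14 (12.1%, 6.76 to 19.4) the E-box CAGCTG. Of the 171 with a summit 301 to 500 bp upstream, 10 (5.85%, 2.84 to 10.5) held TCGATA, 0 the full DRE (interval up to 2.13%), 0 Motif 1 and 2 (1.17%, 0.142 to 4.16) CAGCTG. The word TATAAA ran the other way, in 12 of the near group (10.3%, 5.46 to 17.4) and 50 of the far group (29.2%, 22.5 to 36.7), and TAATTA was in 2 of the near group (1.72%, 0.209 to 6.09) and 18 of the far group (10.5%, 6.36 to 16.1). Between these groups TAATTA was in 5.43% at 51 to 100 bp, 20.6% at 101 to 150 bp, 12.8% at 151 to 200 bp and 7.69% at 201 to 300 bp. These groups are described with no test. The weaker peaks changed in the same directions between these 2 groups, so the changes are not particular to the members. At 1 to 50 bp they held DRE in 6.50% (4.69 to 8.75), Motif 1 in 4.72% (3.18 to 6.70) and TCGATA in 17.2% (14.3 to 20.5). All 3 intervals overlap those of the members. At 301 to 500 bp these shares were 0.526%, 0.263% and 4.07%. CAGCTG went from 9.76% to 4.47% of weaker peaks and TAATTA from 2.60% to 7.49%. TATAAA went from 9.92% to 16.2% (13.6 to 19.0), the latter interval below that of the members. The part of base composition in these changes was not tested. Among the 214 members between tandem genes at most 1000 bp apart, whose median distance was 110.5 bp, TCGATA was in 17.8% and DRE in 4.21%, and among the 340 inside their own gene, at a median of 183.5 bp, in 7.94% and 2.06%.

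Composition also moved with the score. The members were divided by signalValue into 4 groups of 223 or 224, given here from the lowest to the highest. The mean GC content was 37.6%, 36.8%, 32.9% and 29.4%, and the share with TATAAA was 15.6%, 24.7%, 25.9% and 29.5%. The share with GAGAG was 18.8%, 14.3%, 11.6% and 6.70%, with DRE 4.02%, 2.24%, 2.23% and 1.34%, and with Motif 1 3.57%, 1.35%, 0.893% and 0% (0 of 224, interval up to 1.63%). TTAAAA was present in 27.2%, 24.2%, 33.5% and 46.9%, compared with 41.9% of head-to-head peaks, 19.8% of the weaker peaks and 23.4% of windows at all one-directional starts. In the highest group it was the most frequent of the 36 hexamers made of A and T alone (counting a word and its reverse complement once), whose median share was 31.0%, and over all members it was in place 6 of 36. CTTAAA was in 15.2%, 11.2%, 14.3% and 21.0% of the 4 groups and in 9.64% of weaker peaks, and in the highest group it was in place 13 of 192 hexamers with a single G or C. The median distance of the same groups was 144.5, 136, 183.5 and 200 bp upstream.

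The start sites themselves were read for core promoter words on the gene strand. An initiator word, TCAGT or TCATT beginning within 5 bp of the TSS, was present at 22.6% of the 871 starts nearest to members (interval 19.9 to 25.5), at 8.23% of the 644 starts nearest to head-to-head peaks (6.23 to 10.6), at 21.7% of starts next to weaker peaks (20.2 to 23.2) and at 14.8% of the other 16491 one-directional starts (14.3 to 15.4). TATAAA beginning 40 to 20 bp before the TSS, the usual place of a TATA box, was present at 3.44% of members' starts (2.34 to 4.88), at 2.64% next to head-to-head peaks (1.55 to 4.19), at 5.25% next to weaker peaks (4.48 to 6.11) and at 6.54% of the other one-directional starts (6.17 to 6.93). The words CTTTT or CTTTC beginning within 2 bp of the TSS, as in the polypyrimidine initiator of ribosomal protein genes, were at 1.72% of members' starts and 1.47% of the other one-directional starts. By distance of the summit, initiator words were at the starts of 14.7% of members 1 to 50 bp upstream, 28.4% at 151 to 200 bp and 30.4% beyond 300 bp. A match of these letters is a description of the window and does not show that a factor bound there.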

How the data were processed

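CG12299-GFP was profiled by ChIP-seq in 2 biological replicates, and the authors deposited 4 narrowPeak lists: 1 per replicate, 1 pooled and 1 thresholded by irreproducible discovery rate, each called against 1 control alignment per the deposited manifests. The control was not analysed here. The build was dm6 per the labels. The names of the aligner and peak caller were not given in the sources used here. As deposited, signalValue is the authors' peak score, on a scale of each list's own, used only to rank and describe. The deposited -log10 q-value column only described the lists. The deposited summit offset in bp placed the summit. No read counts were used, so depth is unknown and intervals cover counting error only.

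Starts came from Ensembl release 115 without transposable elements, and sequence from the RefSeq release 6 assembly, whose arm lengths contain all peaks. Replicate lists were matched by an overlap of 1 bp, taking the overlapping peak whose summit was nearest to the member's summit. Weaker peaks were pooled peaks overlapping no thresholded peak. Fisher's exact test with Benjamini-Hochberg adjustment over 16 words and a threshold of 0.05 compared classes. Peaks, not replicates, are its units, so its p-values do not measure the spread between replicates. Scripts in Python 3.11.15 (numpy 2.4.6, pandas 2.3.3, scipy 1.17.1, matplotlib 3.10.9) were tested on simulated data. Named genes were those nearest to the 20 strongest members, to the 3 strongest per list (in full for most lists), at the limits of distance and score, and to the strongest holders of 6 words. Genes with 3 or more members were named after their values were seen. Sequences on 1 arm are not shown. The members and lists were chosen with earlier results of these data known. Alternatives covered each replicate alone, a stricter threshold, distance limits, protein-coding starts and word windows.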

Additional observations from a re-analysis of the deposited data

How the results depend on the processing

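Leaving out a replicate, by taking the strongest peaks of the other one's list, gave 909 to 917 upstream one-directional peaks, 6.36% to 6.52% of genes, a median distance of 163 to 169 bp, a mean GC content of 34.7% to 35.2%, and 3 to 7 words that differed from head-to-head peaks, 2 to 3 from peaks just downstream and 4 to 8 from weaker peaks. The 1836 strongest thresholded peaks held 502 members at 3.65% of genes, a median of 190.5 bp and 31.7% GC, with 0 words differing from head-to-head peaks and 0 from peaks just downstream by Fisher's exact test (1 and 3 at an unadjusted p under 0.05), and 98.8% of them were overlapped in both replicates. A limit of 250 bp from the TSS gave 4.64% of genes, 35.3% GC, 5 words against head-to-head, 1 against downstream and 3 against weaker peaks. A limit of 1000 bp gave 7.12% of genes and a median of 201 bp. A head-to-head limit of 2000 bp left 1 word against head-to-head and 1 against downstream peaks, and protein-coding starts gave 8.11% of genes. Windows of 25 bp gave 33.6% GC, with 1 word against head-to-head and 2 against weaker peaks. Windows of 100 bp gave 35.8% GC, with 7 words against head-to-head peaks, 5 against downstream and 5 against distant ones. A reciprocal overlap of 50% gave 66.4% of members in both replicates, and summits at most 50 bp apart 54.9%. Of 119 repeated word differences, 77 kept direction and call, 42 kept direction only and 0 changed direction. The cause of the lost calls was not tested, and the stricter lists also held fewer peaks. The comparison with distant peaks and its alternatives were chosen after seeing the data. No paired analysis was possible because the design has 1 group.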
